A study of Homo sapiens with 6 samples.

Results

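Raltitrexed (RTX) was compared with no treatment (NT) in HCT116-UGI cells, in 2 RNA fractions taken from the same lysates, which made up 4 of the 6 libraries of the study. HCT116 is a human colon adenocarcinoma cell line deficient in mismatch repair, and all cells used here, treated or not, also expressed UGI, a protein inhibitor of the uracil-DNA glycosylase UNG. RTX was given at 100 nM for 48 h. From each lysate, which pooled cytoplasmic and nuclear extracts, one RNA fraction came from Protein A/G beads without antibody during pre-clearing (RIPctr), and the other from the immunoprecipitate with an antibody against thymidylate synthase (TS-RIP). Both fractions hold RNA retained on beads, so neither is a total RNA measurement of the cells. There was 1 lysate per treatment. The fractions are readings of the same cells and not replicates, so no difference below carries a replicate error or a test, and treatment and culture cannot be told apart. RTX was dissolved in dimethyl sulfoxide (DMSO) and the NT cells received nothing, so drug and solvent cannot be told apart either. Of 42822 entries in the table of normalised fragment values, 12425 had a mean over the 4 libraries above 1000 and are the genes measured here. These include 11300 entries of 1 gene and 1099 that merge overlapping genes.

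RTX is a folate analogue that enters cells through the reduced folate carrier, is kept there as polyglutamates, and blocks thymidylate synthase (TS), the enzyme that methylates dUMP to dTMP. Loss of dTMP slows DNA synthesis and raises the use of dUTP as a substrate, and UNG normally removes the uracil that enters DNA. Replication stress of this kind is known to activate the transcription factor p53, whose targets stop the cell cycle, repair DNA or lead to cell death.

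Changes are given as RTX minus NT on the log2(value + 100) scale, where 1 is a doubling, first for RIPctr and then for TS-RIP. Values are scaled fragments that are not divided by gene length, so they are compared between libraries for 1 gene, never between genes. Brackets hold 95% counting intervals (exact binomial, Clopper-Pearson), which do not cover differences between cultures. They were computed on the ratio of scaled fragments without the 100 added, so at low values they are not centred on the change given. The 4 libraries had between 7903472 and 11657292 fragments, and a value of 1000 stood for 8.04 to 11.8 fragments. RTX RIPctr had fragments in 21375 entries, more than the 18889 of NT RIPctr although it was less deep, while the TS-RIP libraries had 18529 and 17694. The part of this difference in the results was not tested. Of the markers of colon epithelium, the cell adhesion protein EPCAM, the keratins KRT8, KRT18 and KRT19, the cadherin CDH1 and the transcription factor CDX2 were measured in all 4 libraries. VIL1 and LGALS4 were below the minimum level. Of 12 markers of fibroblasts, blood, endothelium and liver, 2 were measured (COL1A1 and VWF), 2 were at 0 in all 4 libraries (CD3E and HBB), and their summed values were 28267 in NT and 22525 in RTX for RIPctr, and 25416 and 14840 for TS-RIP.

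Genes with a change of at least 1, in the same direction in each fraction, were counted ("higher" or "lower" with RTX). This gave 662 higher genes (5.33% of the genes measured) and 448 lower genes (3.61%). In single fractions, 1034 genes (8.32%) were higher and 641 (5.16%) lower in RIPctr, and 1176 (9.46%) and 1405 (11.3%) in TS-RIP. With libraries scaled to the same total these were 1300 and 439 in RIPctr and 924 and 1748 in TS-RIP, and 668 and 339 in both. The median change over all genes measured was -0.01 in RIPctr and -0.01 in TS-RIP. The direction was the same in both fractions for 80.9% of the genes, up and down together. That share was not split by direction, so counts below of list members above or below 0 in both fractions only describe the lists. Across genes, which are not independent replicates, the changes had a Pearson r of 0.76 and a Spearman rho of 0.78. Changes of 2 or more in both fractions were seen for 45 higher and 5 lower genes. In RIPctr, median fragments were 120 (NT) and 303.5 (RTX) over the higher genes, and 308 and 122 over the lower genes. The counting interval excluded 0 in both fractions for 653 of the 662 and 426 of the 448. By gene type, 644 of 11629 protein-coding genes were higher and 395 lower, while 13 of 693 lncRNAs were higher and 48 lower.

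**Figure D1:**
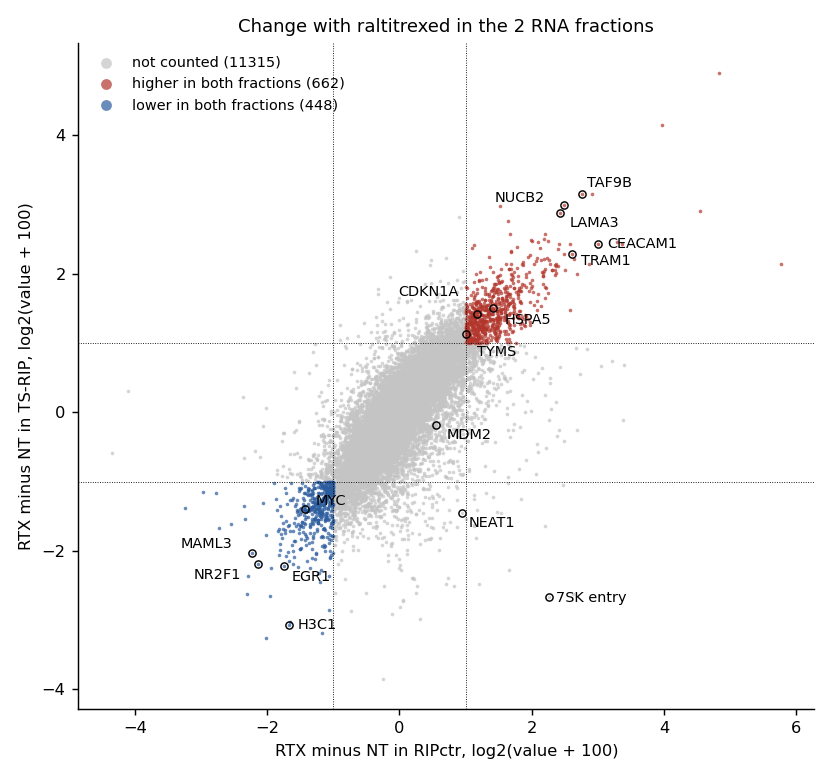
Each point is 1 of the 12425 genes measured, with the RTX minus NT change in RIPctr on the x axis and in TS-RIP on the y axis (both log2(value + 100)), and dotted lines at 1 and -1. The 662 genes higher in both fractions are red and the 448 lower are blue, TAF9B and NUCB2 lie at the top right, and the entry of 7SK RNA lies alone at the bottom right, at 2.26 in RIPctr and -2.66 in TS-RIP.

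Just inside the threshold lay SOAT1 (1.06 and 1.00) and ETV3 (-1.03 in RIPctr, and 87212 in NT against 43556 in RTX for TS-RIP), and just outside it CRELD2 (0.9998 and 1.15) and RASD2 (-0.9996 and -1.32), so that a count separates genes with near-equal changes.

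The target of the drug was examined first. The mRNA of TS itself, TYMS (ENSG00000176890, chromosome 18, 657653 to 673578), had values of 124239 in NT and 249763 in RTX for RIPctr, and 133199 and 291883 for TS-RIP. In each fraction the RTX value was above the NT value, by 1.01 [0.90 to 1.12] and 1.13 [1.04 to 1.22], although TYMS was no longer counted in the 50% subsample of each library. TK1, the thymidine kinase that salvages thymidine, had 111587 in NT and 155931 in RTX for RIPctr, and 120533 and 201205 for TS-RIP, which was below the threshold at 0.48 [0.36 to 0.60] and 0.74 [0.64 to 0.84]. Of the 10 genes of thymidylate synthesis, 2 were higher (20.0%, beside 5.33% of all genes), TYMS among them, and none lower. Changes were above 0 in both fractions for 8 of them, and the medians were 0.46 and 0.58. DUT, the dUTPase that keeps uracil out of DNA, changed by 0.92 and 1.33.

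Among 14 measured genes of folate transport and one-carbon metabolism, 2 were higher (14.3%, beside 5.33% of all genes) and 1 was lower (7.14%, beside 3.61%). The medians were 0.17 and 0.14. GGH, the hydrolase that strips glutamates from folates and antifolates, had 6953 in NT and 28747 in RTX for RIPctr, and 8670 and 25633 for TS-RIP. Its RTX values were above its NT values in both fractions (2.03 [1.64 to 2.48] and 1.55 [1.23 to 1.91]). MTHFD2, a mitochondrial one-carbon enzyme, had 255202 in NT and 523918 in RTX for RIPctr, and 251862 and 588583 for TS-RIP, with changes of 1.04 and 1.22. The carrier SLC19A1, which takes up RTX, changed by 0.28 and 0.28, and FPGS, the synthetase of polyglutamates, by -0.08 and -0.06. Of 20 genes of nucleotide reduction and pyrimidine metabolism, 4 were higher (20.0%, beside 5.33% of all genes) and 1 lower (5.0%, beside 3.61%). RRM2, the small subunit of ribonucleotide reductase, had 310141 in NT and 758747 in RTX for RIPctr, and 272518 and 838066 for TS-RIP, and both fractions were higher with RTX (1.29 [1.23 to 1.36] and 1.62 [1.56 to 1.68]). CMPK1, a pyrimidine monophosphate kinase, changed by 1.58 and 1.56 and SLC29A1, a nucleoside transporter, by 1.08 and 1.26.

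**Figure D2:**
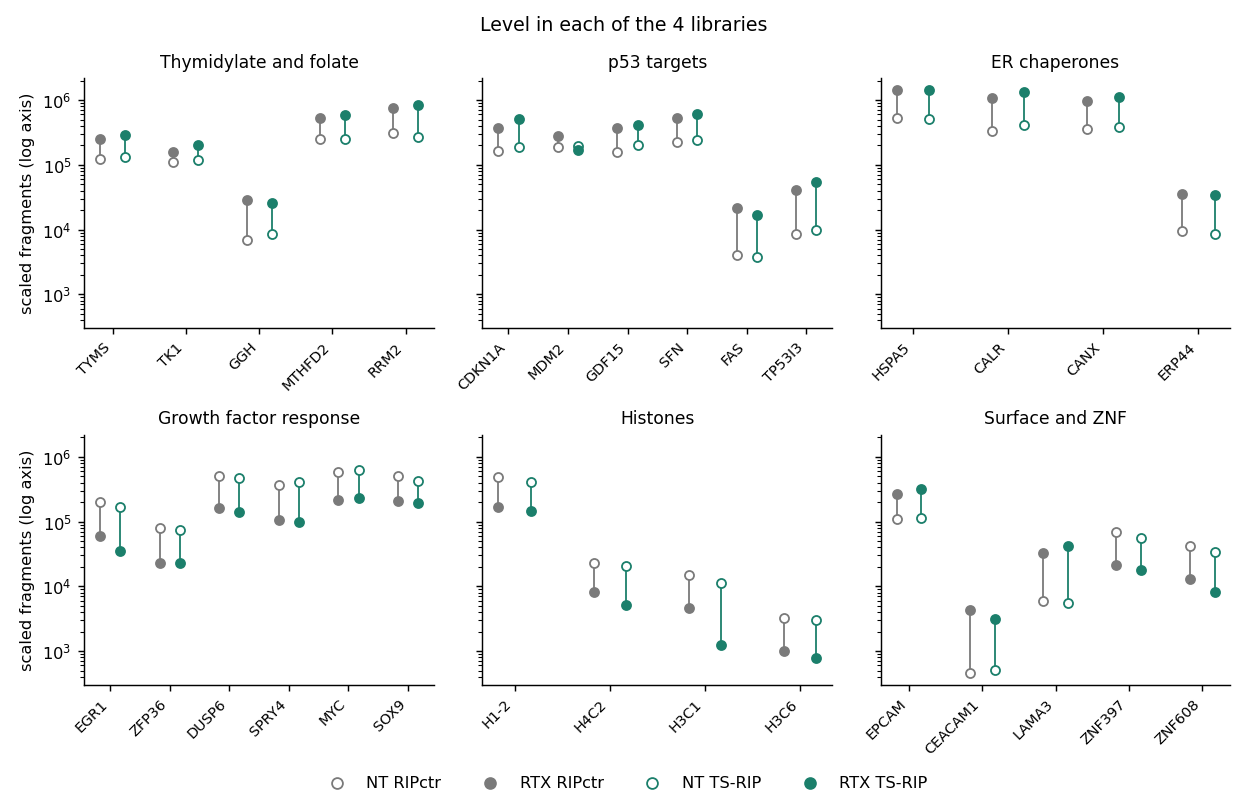
Scaled fragments (log axis) of named genes in the 4 libraries, with open points for NT, filled points for RTX, grey for RIPctr and green for TS-RIP, and a line joining the 2 libraries of a fraction. In the thymidylate and folate, p53 and ER chaperone panels the filled point is the upper one, apart from MDM2 in TS-RIP, and in the growth factor response and histone panels it is the lower one, as for EGR1 (198554 and 59361 in RIPctr).

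Genes that p53 activates were examined in 3 lists. Of 17 targets that act in cell cycle arrest, 4 were higher (23.5%, beside 5.33% of all genes) and none lower (medians 0.55 and 0.56). CDKN1A (ENSG00000124762, chromosome 6, 36676460 to 36687337), which codes for p21, a brake on cyclin-dependent kinases, had 163334 in NT and 369605 in RTX for RIPctr, and 188365 and 502628 for TS-RIP. RTX was above NT within each fraction, by 1.18 [1.09 to 1.27] and 1.42 [1.34 to 1.49]. SFN, the 14-3-3 sigma protein of the G2 checkpoint, changed by 1.25 and 1.35, GADD45A, a stress-induced growth arrest protein, by 1.08 and 1.32, and GDF15, a secreted stress cytokine, by 1.24 and 1.02, though GDF15 was not counted when libraries were scaled to the same total. MDM2, the ubiquitin ligase that degrades p53, had 188182 in NT and 275026 in RTX for RIPctr, and 192275 and 169791 for TS-RIP. Its fractions differed in direction (0.55 [0.45 to 0.64] and -0.18 [-0.27 to -0.09]), so it was not counted.

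Of 18 p53 targets that act in cell death, 6 were higher (33.3% beside 5.33% of all genes) and none lower, with medians of 0.87 and 0.40. FAS (ENSG00000026103, chromosome 10, 88953813 to 89029605), the death receptor, had 4103 in NT and 21654 in RTX for RIPctr, and 3825 and 16864 for TS-RIP. With 100 added to each value, this was 5.17 and 4.32 times the NT level in RIPctr and TS-RIP, a change of 2.37 [1.88 to 2.96] and 2.11 [1.66 to 2.65]. TP53I3, a quinone oxidoreductase induced by p53, had 8663 in NT and 41565 in RTX for RIPctr, and 9860 and 55119 for TS-RIP, a change of 2.25 [1.90 to 2.64] and 2.47 [2.19 to 2.78]. BAX, which permeabilises mitochondria, changed by 1.20 and 1.25, EI24, a p53-induced protein of the ER, by 1.79 and 1.97, and PERP, a desmosomal membrane protein, by 1.39 and 1.24. Of the list, 13 members had changes above 0 in both fractions and 3 below 0 in both. Members outside the higher group included BBC3 (PUMA, -0.77 and -0.73), the apoptosome scaffold APAF1 (-0.33 and -0.56) and the TRAIL receptor TNFRSF10B (0.01 and -0.56). Of 23 targets in DNA repair and metabolism, 5 were higher (21.7%, beside 5.33% of all genes) and none lower (medians 0.80 and 0.78). Among these, ABCA12, a lipid transporter, had 1140 in NT and 5102 in RTX for RIPctr, and 1360 and 6553 for TS-RIP, which is a change of 2.07 [1.14 to 3.33] and 2.19 [1.47 to 3.15]. SERPINB5 (maspin) changed by 1.99 and 2.49, the tetraspanin CD82 by 1.84 and 1.75, and RPS27L, a p53-induced relative of a ribosomal protein, by 1.68 and 1.58. The damaged-DNA binding protein DDB2, in a merged entry, changed by 1.34 and 1.47.

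GADD45G, a relative of GADD45A, was the only gene counted higher that was at 0 in both NT libraries, so that it passed the minimum mean only through the RTX libraries. It had a value of 2738 in RTX RIPctr and 2891 in RTX TS-RIP, which against the limit of 3 fragments per library is at least 8.01-fold and at least 11.3-fold higher.

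Among genes of the cell cycle, 5 of 22 regulators of E2F and the G1 to S transition were higher (22.7%, beside 5.33% of all genes). In the same list 1 was lower (4.55%, beside 3.61%), and the medians were 0.48 and 0.53. CCNE2, a cyclin that activates CDK2 at S phase entry, had 14134 in NT and 38703 in RTX for RIPctr, and 11135 and 33052 for TS-RIP, and CDK2 had 62689 in NT and 142491 in RTX for RIPctr, and 67237 and 176536 for TS-RIP. Both were higher with RTX in each fraction, CCNE2 by 1.45 and 1.56 and CDK2 by 1.18 and 1.39. MYBL2, a transcription factor of late S phase, changed by 1.19 and 1.51 and CCND3, a D-type cyclin, by 1.17 and 1.13. The lower gene was CDKN1B, the p27 inhibitor of cyclin-dependent kinases, with 51405 in NT and 18791 in RTX for RIPctr, and 55337 and 22934 for TS-RIP and changes of -1.45 [-1.73 to -1.18] and -1.27 [-1.49 to -1.05]. Thus the mRNAs of the 2 inhibitors CDKN1A and CDKN1B differed in direction.

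Of 45 genes of DNA replication, 4 were higher (8.89%, near the 5.33% of all genes) and none lower. Changes were above 0 in both fractions for 35 of them, and the medians were 0.32 and 0.66. RFC5, a subunit of the clamp loader, had 20403 in NT and 65085 in RTX for RIPctr, and 20996 and 67165 for TS-RIP, a change of 1.67 [1.43 to 1.93] and 1.67 [1.47 to 1.89]. CDC45, part of the replicative helicase, changed by 1.02 and 1.53, POLE3, an accessory subunit of DNA polymerase epsilon, by 1.11 and 1.27, and RPA3, of the single-strand binding complex, by 1.47 and 1.11. Of 34 genes of homologous recombination and the Fanconi pathway, 3 were higher (8.82%) and 1 was lower (2.94%, beside 3.61% of all genes), with medians of 0.42 and 0.51. These shares lie near those of all genes. RAD54L, a DNA translocase of recombination, changed by 1.26 and 1.41, and the accessory protein RAD51AP1 by 1.41 and 1.48. RAD51C, which acts in strand exchange, changed by 1.00 and 1.49, while FANCF, of the Fanconi core complex, had -1.32 and -1.54. CDC45 and RAD51C were not counted in the 50% subsample of each library. None of 22 genes of base excision repair and none of 7 of mismatch repair was counted, and UNG changed by 0.16 and 0.27. Of 48 genes of G2 and mitosis, 4 were higher (8.33%, also near the 5.33% of all genes). CDK1, the kinase that drives mitosis, had 39665 in NT and 113121 in RTX for RIPctr, and 33321 and 122477 for TS-RIP, a change of 1.51 [1.33 to 1.69] and 1.87 [1.71 to 2.05]. BIRC5 (survivin) changed by 1.31 and 1.41, the ubiquitin-conjugating enzyme UBE2C by 1.498 and 1.504 and the spindle checkpoint protein MAD2L1 by 1.33 and 1.23. The median of that list was 0.40 in TS-RIP and -0.05 in RIPctr, where it turned to 0.05 when libraries were scaled to the same total.

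**Figure D3:**
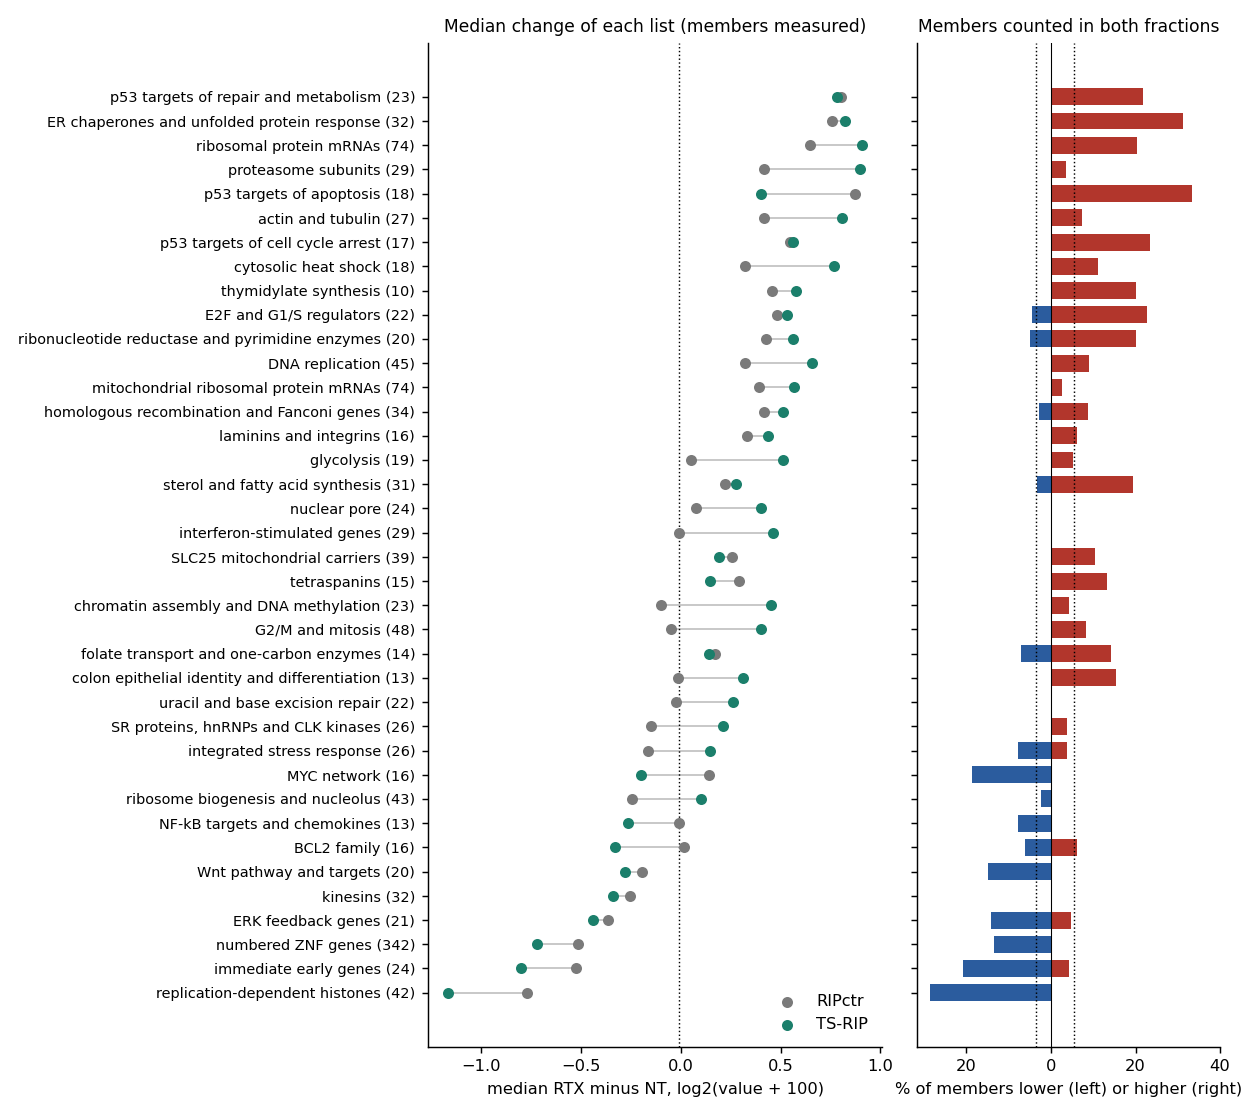
Left, the median RTX minus NT change (log2(value + 100)) of each gene list with at least 10 measured members, in RIPctr (grey) and TS-RIP (green), with the number of members in brackets and a dotted line at the median of all genes. Right, the percentage of members counted lower (blue) or higher (red) in both fractions, with dotted lines at the 3.61% and 5.33% of all genes. Lists are in the order of the mean of their 2 medians, with histones at -0.77 and -1.16 at one end and p53 targets of repair at 0.80 and 0.78 at the other.

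mRNAs of endoplasmic reticulum (ER) chaperones mostly had changes above 0. These proteins fold and modify secreted and membrane proteins, and the unfolded protein response raises them through the factors ATF6 and XBP1, which bind the ER stress response element (ERSE) in their promoters. Of 32 measured genes of the list, 10 were higher (31.2%, beside 5.33% of all genes) and none lower, 25 had changes above 0 in both fractions, and the medians were 0.76 and 0.82. HSPA5 (ENSG00000044574, chromosome 9, 125234853 to 125241382), the BiP chaperone, had 532973 in NT and 1425400 in RTX for RIPctr, and 509249 and 1446020 for TS-RIP. Its level with RTX lay above that of NT in each fraction, by 1.42 [1.37 to 1.47] and 1.51 [1.46 to 1.55]. CALR, the lectin chaperone calreticulin, had 336812 in NT and 1071230 in RTX for RIPctr, and 410476 and 1347920 for TS-RIP, and its membrane-bound relative CANX (calnexin) had 352200 in NT and 964581 in RTX for RIPctr, and 382341 and 1098920 for TS-RIP. Again both fractions were higher, by 1.67 and 1.72 for CALR and 1.45 and 1.52 for CANX. ERP44, a thiol chaperone that retains clients in the early secretory pathway, had 9346 in NT and 35343 in RTX for RIPctr, and 8585 and 33631 for TS-RIP and the largest changes of the list, 1.91 [1.56 to 2.29] and 1.96 [1.65 to 2.30]. HSP90B1 (GRP94), in a merged entry, changed by 1.15 and 1.44, the disulfide isomerase PDIA4 by 1.12 and 1.08, MANF by 1.85 and 1.38 and the signal peptidase subunit SPCS1 by 1.29 and 1.27. The sensors and transcription factors of the response were not counted: XBP1 had -0.01 and 0.37, ATF6 0.19 and 0.34, and the kinase ERN1 (IRE1) -0.02 and -0.37.

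The promoters of 4 higher chaperone genes are shown because they hold an ERSE. In RefSeq promoters of GRCh38.p14 (250 bases before to 50 after the gene start), the ERSE letters (CCAAT and CCACG, with 9 bases of any kind between them, on either strand) were found in 22 of 27305 (0.0806%). Promoters were matched for 9 of the 10 higher chaperone genes, and 4 held the element (44.4%), while all 9 held CCAAT, which is part of ERSE, beside 35.7% of all promoters. Over all measured genes of the list it was 6 of 29 (20.7%). Each sequence below runs from up to 20 bases before the first element to 20 bases after the gene start, in the direction of transcription, with the ERSE in capitals, read on the reverse strand in CALR and for the second element in HSP90B1. HSPA5 is at chr9:125241324-125241429 (minus strand), HSP90B1 at chr12:103930196-103930429 (plus strand), CALR at chr19:12938364-12938628 (plus strand) and CANX at chr5:179698758-179698948 (plus strand).
HSPA5: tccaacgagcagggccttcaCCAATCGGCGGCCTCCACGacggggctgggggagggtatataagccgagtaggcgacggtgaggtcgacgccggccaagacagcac
HSP90B1: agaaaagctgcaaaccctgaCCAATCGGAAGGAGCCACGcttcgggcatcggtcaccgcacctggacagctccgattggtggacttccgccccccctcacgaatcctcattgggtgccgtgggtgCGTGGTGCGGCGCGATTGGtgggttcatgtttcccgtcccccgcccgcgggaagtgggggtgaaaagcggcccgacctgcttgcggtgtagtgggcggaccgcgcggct
CALR: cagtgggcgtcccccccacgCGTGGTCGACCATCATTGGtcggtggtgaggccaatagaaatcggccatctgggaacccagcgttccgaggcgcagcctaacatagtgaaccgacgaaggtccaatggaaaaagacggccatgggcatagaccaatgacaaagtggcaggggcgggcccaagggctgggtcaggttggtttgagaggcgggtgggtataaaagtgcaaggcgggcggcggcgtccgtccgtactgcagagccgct
CANX: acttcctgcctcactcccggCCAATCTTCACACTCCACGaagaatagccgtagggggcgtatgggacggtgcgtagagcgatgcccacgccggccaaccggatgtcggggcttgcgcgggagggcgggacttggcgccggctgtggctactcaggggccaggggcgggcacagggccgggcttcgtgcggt
The first base of the element lay 66 bases before the start in HSPA5 and 151 in CANX. A match describes letters only. Of the 13 measured genes with an ERSE in their promoter, 4 were higher (the 4 shown, beside 5.33% of all genes) and none lower. Changes were above 0 in both fractions for 9 of them, and the medians were 0.57 and 0.72. Among these 13 were the overlapping neighbours ALG12 and CRELD2, and EIF2A and SERP1. FICD, which modifies BiP, went the other way, with -1.55 and -0.58.

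Other stress lists held few counted genes. Of 26 genes of the integrated stress response, 1 was higher (3.85%, beside 5.33% of all genes) and 2 were lower (7.69%, beside 3.61%). The medians were -0.16 and 0.15. ATF3 (ENSG00000162772, chromosome 1, 212565334 to 212620777), a stress-induced transcription factor, had 20517 in NT and 66205 in RTX for RIPctr, and 21166 and 84606 for TS-RIP, a change of 1.69 [1.44 to 1.94] and 1.99 [1.79 to 2.21]. CHAC1, a glutathione-degrading target of ATF4, had 10486 in NT and 3858 in RTX for RIPctr, and 11900 and 4433 for TS-RIP, and CEBPB, a transcription factor, had 92096 in NT and 39449 in RTX for RIPctr, and 118748 and 43652 for TS-RIP. Both were lower with RTX, with changes of -1.42 and -1.40 for CHAC1 and -1.22 and -1.44 for CEBPB. ATF4 itself changed by -0.01 and 0.29 and DDIT3 (CHOP), in a merged entry, by -0.91 and -0.95. Of 18 cytosolic heat shock genes, 2 were higher (11.1%, beside 5.33% of all genes), the HSP90 co-chaperones CHORDC1 (1.18 and 1.39) and CACYBP (1.14 and 1.49). None of 29 interferon-stimulated genes was counted (medians -0.01 and 0.46), while with same-total scaling 2 were higher and the RIPctr median was 0.09.

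Genes that respond to growth factors were examined in 2 lists. Immediate early genes are transcribed within minutes of receptor signalling and their mRNAs decay fast. Of 24 measured, 5 were lower (20.8%, beside 3.61% of all genes), 1 was higher (ATF3), 17 had changes below 0 in both fractions, and the medians were -0.52 and -0.80. EGR1 (ENSG00000120738, chromosome 5, 138465479 to 138469303), a zinc finger transcription factor, had 198554 in NT and 59361 in RTX for RIPctr, and 166010 and 35558 for TS-RIP. Each fraction had less of it with RTX, with changes of -1.74 [-1.89 to -1.59] and -2.22 [-2.39 to -2.06]. ZFP36 (tristetraprolin), which triggers decay of AU-rich mRNAs, had 80470 in NT and 22774 in RTX for RIPctr, and 74802 and 23127 for TS-RIP, a change of -1.82 [-2.06 to -1.58] and -1.69 [-1.91 to -1.49]. IER2 changed by -1.44 and -1.41, IER3 by -1.32 and -1.14, and JUNB, an AP-1 subunit, by -1.02 and -1.19. FOS (-0.32 and -0.49) and JUN (-0.66 and -0.96) were below the threshold.

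Feedback inhibitors of the ERK kinase pathway were examined next. DUSP6, the phosphatase of ERK, had 506757 in NT and 160038 in RTX for RIPctr, and 465728 and 141653 for TS-RIP. SPRY4, an inhibitor of receptor tyrosine kinase signalling, had 372146 in NT and 104908 in RTX for RIPctr, and 405631 and 97037 for TS-RIP. Both genes were lower in each fraction, with changes of -1.66 [-1.75 to -1.57] and -1.72 [-1.80 to -1.63] for DUSP6 and -1.83 [-1.94 to -1.72] and -2.06 [-2.16 to -1.97] for SPRY4. Of the 21 genes of that list, 3 were lower (14.3%, beside 3.61% of all genes) and 1 was higher (4.76%, beside 5.33%). Those lower were DUSP6, SPRY4 and IER3, and IER3 is also counted among the lower immediate early genes above. The medians were -0.36 and -0.44. The higher gene was HBEGF, a ligand of the EGF receptor, with 9916 in NT and 35965 in RTX for RIPctr, and 8670 and 38449 for TS-RIP. Its changes were 1.85 and 2.14.

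MYC (ENSG00000136997, chromosome 8, 127735434 to 127742951), a growth-promoting transcription factor, had 578679 in NT and 214296 in RTX for RIPctr, and 617627 and 234836 for TS-RIP. With RTX it was lower in each fraction (-1.43 [-1.51 to -1.35] and -1.39 [-1.46 to -1.33]). In the MYC network of 16 genes 3 were lower (18.8%, beside 3.61% of all genes). These were MYC, its relative MYCL (-1.01 and -1.58) and the antagonist MNT (-1.09 and -1.14), of which MYCL and MNT were not counted when libraries were scaled to the same total. Of 43 genes of ribosome biogenesis and the nucleolus, 1 was lower (2.33%) and none higher (medians -0.24 and 0.10, the second of which changed sign with same-total scaling). In the Wnt pathway, 3 of 20 genes were lower (15.0%, beside 3.61% of all genes) and none higher. TCF7L2, the transcription factor at the end of the pathway, had 382405 in NT and 109512 in RTX for RIPctr, and 243532 and 61479 for TS-RIP, a change of -1.80 [-1.91 to -1.70] and -1.98 [-2.11 to -1.86]. SOX9, a target of the pathway in intestinal crypts, had 515192 in NT and 204963 in RTX for RIPctr, and 425862 and 195327 for TS-RIP, and changed by -1.33 and -1.12. The inhibitor NKD1 changed by -1.02 and -1.16.

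Replication-dependent histones are made in S phase from mRNAs without a poly(A) tail, and these libraries, which were depleted of rRNA and not selected for poly(A), can hold them. Of 42 measured histone genes, 12 were lower (28.6%, beside 3.61% of all genes) and none higher, 37 had changes below 0 in both fractions, and the medians were -0.77 and -1.16. H1-2 (ENSG00000187837, chromosome 6, 26055740 to 26056470), a linker histone, had 495017 in NT and 170118 in RTX for RIPctr, and 404526 and 144062 for TS-RIP. It was lower with RTX in both fractions, with changes of -1.54 [-1.63 to -1.45] and -1.49 [-1.57 to -1.41]. H3C1 had 14931 in NT and 4605 in RTX for RIPctr, and 11305 and 1253 for TS-RIP, so that the change was larger in TS-RIP (-1.68 [-2.27 to -1.16] and -3.08 [-4.12 to -2.35]). H4C2 had 23366 in NT and 8213 in RTX for RIPctr, and 20656 and 5204 for TS-RIP, and changes of -1.50 and -1.97, while H3C6 changed by -1.59 and -1.86. Histone genes are near-identical copies and the authors kept uniquely mapped reads, so values of single copies are uncertain. Histones thus differed in direction from the DNA replication list, whose medians were above 0.

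Histone promoters were read in the same way. Of the 12 lower genes 11 had a promoter, of which 10 held TATAAA (90.9%, beside 12% of all promoters) and 9 held CCAAT (81.8%, beside 35.7%), and over the 38 promoters of all measured histone genes the shares were 78.9% and 84.2%. H3C1, at chr6:26020338-26020470 (plus strand), and H4C2, at chr6:26027264-26027526 (minus strand), are shown as examples of a lower gene with both motifs and one with TATAAA alone, from 20 bases before the first motif to 20 bases after the start, with TATAAA and CCAAT in capitals.
H3C1: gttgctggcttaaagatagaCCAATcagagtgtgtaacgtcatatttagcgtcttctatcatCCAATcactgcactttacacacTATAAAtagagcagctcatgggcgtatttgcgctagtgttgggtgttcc
H4C2: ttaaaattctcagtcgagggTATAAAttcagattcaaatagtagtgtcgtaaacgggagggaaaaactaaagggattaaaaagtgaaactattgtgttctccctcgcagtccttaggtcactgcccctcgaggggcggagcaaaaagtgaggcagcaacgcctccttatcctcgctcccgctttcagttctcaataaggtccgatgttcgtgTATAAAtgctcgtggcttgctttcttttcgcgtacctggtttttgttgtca
The TATAAA nearest to the start lay 29 bases before it in H3C1 and 31 in H4C2. Not every match lay there: in H3C6 and H2BC14 the only TATAAA was on the reverse strand, 157 and 219 bases before the start.

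mRNAs of ribosomal proteins had changes above 0 across nearly the whole list. Of 74 measured, 15 were higher (20.3%, beside 5.33% of all genes) and none lower, 72 had changes above 0 in both fractions, and the medians were 0.65 and 0.91. RPS20 had 188638 in NT and 495917 in RTX for RIPctr, and 230356 and 554374 for TS-RIP, a change of 1.39 [1.31 to 1.48] and 1.27 [1.20 to 1.33]. RPS27 had 43541 in NT and 111753 in RTX for RIPctr, and 58652 and 159673 for TS-RIP, and was higher in each fraction (1.36 [1.19 to 1.54] and 1.44 [1.32 to 1.58]). The count includes RPS27L, which is also in a p53 list. At the low end were RPL31 (-0.12 and 0.19) and RPL3 (0.06 and 0.28). Ribosomal protein genes have many processed pseudogenes, so that reads which map to more than 1 copy are missing from these values. Proteasome subunits had medians of 0.42 and 0.90, with 27 of 29 changes above 0 in both fractions. PSMA7 (1.11 and 1.29) was the 1 member counted (3.45%, beside 5.33% of all genes). Of 74 mitochondrial ribosomal proteins, 2 were higher (2.7%) and none lower (medians 0.39 and 0.57). Of 27 actin and tubulin genes 2 were higher (7.41%), TUBG1 of the centrosome (1.07 and 1.31) and the smooth muscle actin ACTA2 (1.18 and 1.02). ACTA2 overlaps FAS on chromosome 10, and it was not counted when libraries were scaled to the same total.

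**Figure D4:**
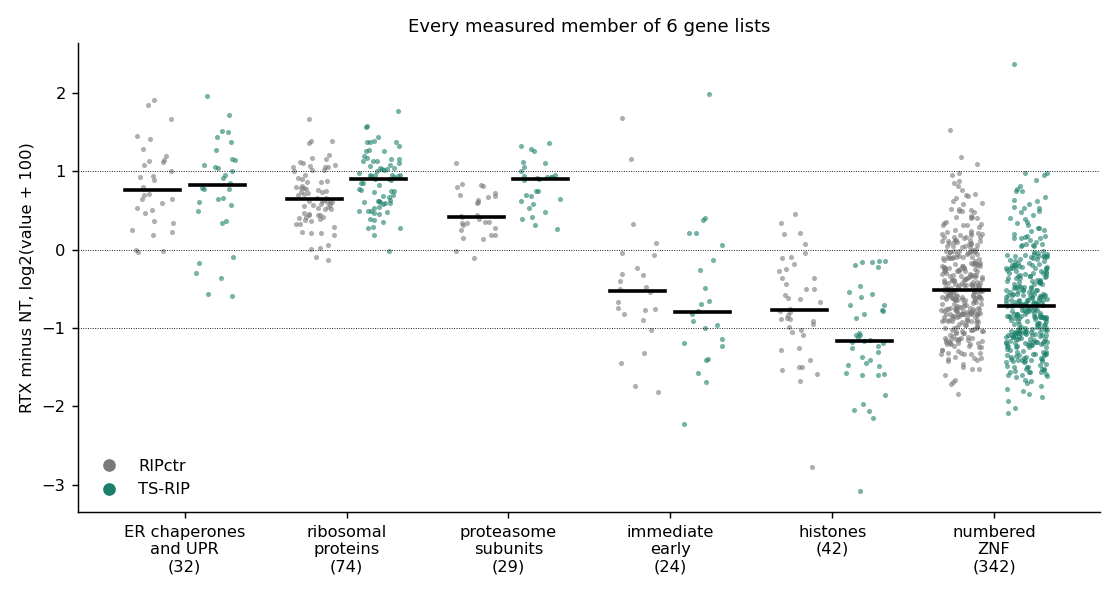
RTX minus NT change (log2(value + 100), y axis) of every measured member of 6 gene lists in RIPctr (grey) and TS-RIP (green), with black bars at the medians and dotted lines at -1, 0 and 1. The ribosomal protein medians are 0.65 and 0.91 and the histone medians -0.77 and -1.16, and single members such as ATF3 and ZNF804A lie far from the others of their lists.

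In lipid synthesis the members split. Of 31 genes of sterol and fatty acid synthesis, 6 were higher (19.4%, beside 5.33% of all genes) and 1 was lower (3.23%, beside 3.61%). The medians were 0.22 and 0.28. MSMO1, a demethylase of the late cholesterol pathway, had 6383 in NT and 25263 in RTX for RIPctr, and 4420 and 21778 for TS-RIP, a change of 1.97 [1.55 to 2.44] and 2.27 [1.86 to 2.76]. SC5D, a desaturase of the same branch, changed by 1.76 and 1.42 and ACAT2, a thiolase at its start, by 1.48 and 1.46. FASN (ENSG00000169710, chromosome 17, 82078338 to 82098294), fatty acid synthase, had 4606860 in NT and 2289680 in RTX for RIPctr, and 4019850 and 1972640 for TS-RIP, and was lower in both fractions (-1.01 [-1.03 to -0.98] and -1.03 [-1.05 to -1.003]), but was not counted when libraries were scaled to the same total. The regulators of the pathway had changes below 0, with -0.89 and -1.46 for SREBF1 and -0.18 and -0.12 for SREBF2. SLC2A1, the main glucose transporter, was the only 1 of 19 glycolysis genes counted (5.26%, beside 5.33% of all genes). It had 55053 in NT and 154686 in RTX for RIPctr, and 58227 and 183475 for TS-RIP, with changes of 1.49 and 1.65.

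Of 13 genes of colon epithelial identity and differentiation, 2 were higher (15.4%, beside 5.33% of all genes) and none lower, 6 had changes above 0 and 6 below 0 in both fractions, and the medians were 0.31 in TS-RIP and -0.01 in RIPctr, where the sign turned with same-total scaling. EPCAM (ENSG00000119888, chromosome 2, 47345158 to 47387601), the epithelial cell adhesion molecule, had 109991 in NT and 268928 in RTX for RIPctr, and 114243 and 317997 for TS-RIP. The RTX value was the higher one in each fraction, by 1.29 [1.18 to 1.40] and 1.48 [1.39 to 1.57]. CEACAM1, an adhesion receptor of the carcinoembryonic antigen family, had 456 in NT and 4356 in RTX for RIPctr, and 510 and 3180 for TS-RIP, a change of 3.003 [1.77 to 5.21] and 2.43 [1.37 to 4.19]. It rests on 4 and 6 fragments in NT and passed the minimum mean only through the RTX libraries. At a mean above 5000, 1 of 10 members of the list was higher. Fewer cells of a type and less RNA per cell cannot be told apart in such bulk samples. The keratins KRT8 (0.01 and 0.62), KRT18 (-0.01 and 0.45) and KRT19 (0.01 and 0.31) were below the threshold. CDH1 had 48214 in NT and 94454 in RTX for RIPctr, and 49981 and 91448 for TS-RIP, while CDX2 had 16983 and 14062, and 24056 and 14069. LAMA3 (ENSG00000053747, chromosome 18, 23689453 to 23956222), the alpha chain of the basement membrane laminin of epithelia, had 5927 in NT and 32356 in RTX for RIPctr, and 5610 and 42111 for TS-RIP. Its change was 2.43 [2.01 to 2.91] and 2.89 [2.53 to 3.30]. It was the only member counted of 16 laminins and integrins (6.25%, beside 5.33% of all genes). Of 15 tetraspanins 2 were higher (13.3%, beside 5.33% of all genes), TSPAN6 (1.68 and 2.15) and TSPAN13 (1.70 and 1.16), and of 39 SLC25 mitochondrial carriers 4 were higher (10.3%), among them SLC25A46 (1.70 and 1.91).

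Numbered ZNF genes, most of which code for DNA-binding zinc finger proteins, were mostly below 0. Of 342 measured, 46 were lower (13.5%, beside 3.61% of all genes) and 1 was higher, 262 had changes below 0 in both fractions and 30 above 0, and the medians were -0.51 and -0.72. ZNF397 had 68616 in NT and 21529 in RTX for RIPctr, and 55082 and 17731 for TS-RIP, a change of -1.67 [-1.92 to -1.43] and -1.63 [-1.88 to -1.40]. ZNF608 had 41489 in NT and 12818 in RTX for RIPctr, and 34001 and 8287 for TS-RIP, and changed by -1.69 [-2.02 to -1.38] and -2.02 [-2.39 to -1.70]. ZNF624 (-1.60 and -2.08) and ZNF449 (-1.42 and -1.85) were lower too. The exception was ZNF804A, with 2052 in NT and 4480 in RTX for RIPctr, and 850 and 4818 for TS-RIP, which rests on 18 and 10 fragments in NT. The longest transcripts of this list had a median of 4207 nt, beside 3625 nt for all protein-coding genes of 1 gene.

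Over all genes, the 10 protein-coding genes with the largest increases (ranked by the smaller of both changes, at a mean over 5000) did not belong to 1 pathway. TAF9B (ENSG00000187325, chromosome X, 78129748 to 78139650), a histone-fold subunit of transcription factor complexes, had 4103 in NT and 28374 in RTX for RIPctr, and 3570 and 32474 for TS-RIP. With 100 added to each value, this was 6.77 and 8.88 times the NT level in RIPctr and TS-RIP, or 2.76 [2.28 to 3.34] and 3.15 [2.72 to 3.68]. NUCB2, a calcium-binding protein of the Golgi and the precursor of nesfatin-1, had 8093 in NT and 45672 in RTX for RIPctr, and 6800 and 54830 for TS-RIP, a change of 2.48 [2.13 to 2.88] and 2.99 [2.67 to 3.37]. PIGK, the catalytic subunit that attaches GPI anchors in the ER, had 5699 in NT and 34472 in RTX for RIPctr, and 4930 and 27078 for TS-RIP. It changed by 2.58 and 2.43, LAMA3 as given above, and NXT2, a cofactor of mRNA export, by 2.42 and 2.43. Also among the first 10 were MMGT1, a subunit of the ER membrane insertion complex (2.40 and 2.36), the translocon-associated TRAM1 (2.60 and 2.28), ULBP2, a stress ligand for natural killer cell receptors (2.49 and 2.29), TP53I3, and ZMPSTE24, the protease that matures lamin A (2.23 and 2.23).

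The 10 largest decreases held transcription factors and signalling inhibitors. NR2F1 (ENSG00000175745, chromosome 5, 93583222 to 93594611), the orphan nuclear receptor COUP-TF1, had 517130 in NT and 117726 in RTX for RIPctr, and 580311 and 126813 for TS-RIP. Levels with RTX were 4.39 and 4.57-fold lower than NT in RIPctr and TS-RIP (-2.13 [-2.24 to -2.03] and -2.19 [-2.28 to -2.11]). MAML3, a coactivator of Notch, had 34080 in NT and 7218 in RTX for RIPctr, and 32981 and 7998 for TS-RIP, a change of -2.22 [-2.67 to -1.83] and -2.03 [-2.40 to -1.70]. SOX4, a transcription factor of progenitor cells, had 595320 in NT and 146971 in RTX for RIPctr, and 637008 and 186751 for TS-RIP, and TRIB1, a pseudokinase that directs protein degradation, had 696649 in NT and 198118 in RTX for RIPctr, and 778792 and 207662 for TS-RIP. They changed by -2.02 and -1.77 (SOX4) and -1.81 and -1.91 (TRIB1). DBP, a transcription factor of the circadian clock, had -1.73 and -1.74, and SPRY4, TCF7L2, EGR1, ZFP36 and ZNF608 are described above.

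Among 693 long noncoding RNAs, 48 were lower and 13 higher. The share of lncRNAs counted lower was 6.93%, beside 3.40% of protein-coding genes, and the share counted higher 1.88%, beside 5.54%. NORAD (ENSG00000260032, chromosome 20, 36045618 to 36051018), a cytoplasmic lncRNA that sequesters Pumilio proteins and is induced by DNA damage in human cells, had 514166 in NT and 219896 in RTX for RIPctr, and 482643 and 159191 for TS-RIP. It was lower in both fractions (-1.23 [-1.31 to -1.15] and -1.60 [-1.68 to -1.52]). SSTR5-AS1 had 12652 in NT and 3236 in RTX for RIPctr, and 11305 and 2313 for TS-RIP, a change of -1.93 [-2.64 to -1.34] and -2.24 [-2.98 to -1.65], and SGMS1-AS1 had -1.65 and -3.03. Lower as well were MIR1915HG (-1.61 and -1.71), AL161772.1 (-1.61 and -2.18) and AL356019.2 (-1.52 and -1.75). Of those higher, SNHG6, a host of small nucleolar RNAs, had 50949 in NT and 142117 in RTX for RIPctr, and 54147 and 209300 for TS-RIP, a change of 1.48 [1.32 to 1.64] and 1.95 [1.82 to 2.08]. AL161891.1 changed by 1.96 and 2.03, MAP4K3-DT by 1.35 and 1.38, AL157394.3 by 1.41 and 1.35 and AC103718.1 by 1.23 and 1.21. AL157394.3 lies within the span of FAS and overlaps ACTA2. The merged entry of the imprinted lncRNA H19 and its microRNA MIR675 changed by 1.49 and 1.78, on 8 (NT) and 22 (RTX) fragments in RIPctr and 14 and 45 in TS-RIP.

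Some RNAs changed in opposite directions in the 2 fractions. Of the 12425 genes measured, 19 had a change of 1 or more in each fraction but opposite signs, and all 19 were higher in RIPctr and lower in TS-RIP. Several of them rest on few fragments, with a counting interval that includes 0 in at least 1 fraction. Examples are AC015799.1 (2 fragments in NT TS-RIP and 0 in RTX TS-RIP) and RN7SKP71 (6 and 1). The entry AL162581.1 (ENSG00000202198, chromosome 6, 52995620 to 52995950), named 7SK in GENCODE 44, is the RNA that holds the elongation factor P-TEFb inactive in the nucleus. It had 597372 in NT and 2863250 in RTX for RIPctr, and 535345 and 84606 for TS-RIP. It was higher with RTX in RIPctr and lower in TS-RIP, with changes of 2.26 [2.22 to 2.30] and -2.66 [-2.77 to -2.56]. SCARNA7, a guide RNA of Cajal bodies, had 8549 in NT and 27254 in RTX for RIPctr, and 850 and 96.4 for TS-RIP, and AL356488.2, a lncRNA, had 57104 in NT and 128553 in RTX for RIPctr, and 3995 and 1445 for TS-RIP. These changed by 1.66 and -2.27 (SCARNA7) and 1.17 and -1.41 (AL356488.2), although SCARNA7 rests on 10 fragments in NT TS-RIP and 1 in RTX TS-RIP. The nuclear lncRNAs NEAT1 and MALAT1, each in a merged entry, went the same way. NEAT1 had 811427 in NT and 1557570 in RTX for RIPctr, and 54572 and 19947 for TS-RIP (0.94 and -1.45), and MALAT1 had 5302940 in NT and 10227700 in RTX for RIPctr, and 246252 and 131246 for TS-RIP (0.95 and -0.91). In both, the RIPctr value was higher with RTX and the TS-RIP value lower.

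RNA of the signal recognition particle, which directs ribosomes to the ER, was lower mainly in RIPctr. RN7SL1 had 8142990 in NT and 1892450 in RTX for RIPctr, and 4124830 and 2636290 for TS-RIP (-2.11 and -0.65), and RN7SL2, in a merged entry, changed by -2.35 and -0.66. RN7SL5P, a copy of the same sequence family, had -4.10 and 0.31. The U1 snRNA genes RNU1-2 (-1.51 and -1.98), RNU1-3 (-2.29 and -2.36) and RNU1-4 (-1.68 and -2.14), whose product recognises 5′ splice sites, were lower in both fractions. All of these belong to families of near-identical copies and their single values are uncertain.

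More genes were counted in TS-RIP alone than in RIPctr alone. In RIPctr alone 372 genes were higher and 193 lower, and in TS-RIP alone 514 and 957. For higher genes this order depended on scaling. With libraries scaled to the same total, 1300 were higher in RIPctr and 924 in TS-RIP, so that more were higher in RIPctr alone. For lower genes the order stayed, with 439 in RIPctr and 1748 in TS-RIP. Of the 957 genes lower in TS-RIP alone, 823 had changes below 0 in RIPctr too, and the median of the 957 there was -0.62. They held 151 lncRNAs and 73 numbered ZNF genes, beside 693 and 342 among the 12425 genes measured. Of the 514 higher in TS-RIP alone, 477 had changes above 0 in RIPctr, with a median of 0.72.

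Changes also followed the length and base composition of transcripts. The 10594 protein-coding genes with an entry of their own were put in 5 equal bins by their longest transcript. The bin of shortest transcripts (median 1528 nt) had median changes of 0.32 and 0.45, and the bin of longest transcripts (median 7861 nt) had -0.27 and -0.37. In the shortest bin 10.6% were counted higher and 1.51% lower, and in the longest 2.22% and 6.04%. In 5 bins by GC content of the same transcript, the lowest (median 38.4%) had medians of 0.20 and 0.24, with 11.2% counted higher, and the highest (median 62.2%) had -0.18 and -0.26, with 1.98% counted higher. Within each GC bin, the shorter transcripts had higher medians than the longer ones in both fractions. For example, when the lowest GC bin was split in 3 by length, its medians were 0.45 and 0.63 for the shortest and -0.05 and -0.10 for the longest. The genes counted higher had a median transcript of 2586 nt and 42.3% GC, and those counted lower 4746 nt and 53.6%. Among lists of short transcripts, ribosomal protein mRNAs (median 1204 nt) had median changes of 0.65 and 0.91. Mitochondrial ribosomal protein mRNAs (median 1594 nt) had 0.39 and 0.57, and histone mRNAs (median 496.5 nt) had -0.77 and -1.16. The part of length and GC content was not tested in any list.

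**Figure D5:**
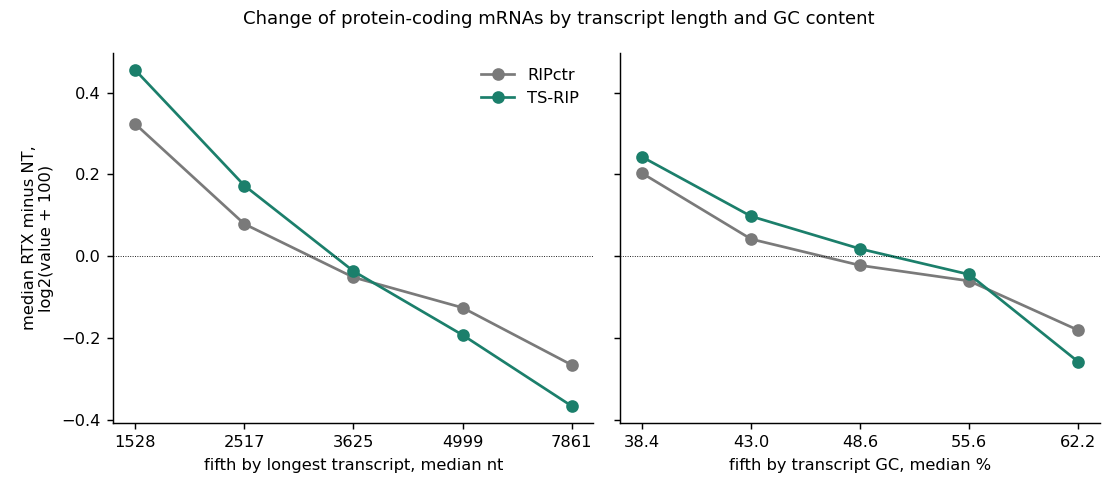
Median RTX minus NT change (log2(value + 100), y axis) of protein-coding genes in 5 equal bins by longest transcript (left, median nt on the x axis) and by its GC content (right, median % on the x axis), in RIPctr (grey) and TS-RIP (green). The medians go from 0.32 and 0.45 in the bin of shortest transcripts to -0.27 and -0.37 in the longest.

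The study also treated cells with 5-fluoro-2'-deoxyuridine (5FdUR, 20 µM, 48 h), a nucleoside whose monophosphate binds TS covalently. Its changes from NT use the same NT libraries as those of RTX, so both sets are given side by side only. Its TS-RIP values come from a column whose name differs in form from the others and was taken as that library from its treatment and fraction. Among p53 targets, CDKN1A had 1.18 and 1.42 with RTX against 2.71 and 2.78 with 5FdUR, and FAS had 2.37 and 2.11 with RTX against 3.44 and 3.49 with 5FdUR. TP53I3 changed by 2.25 and 2.47 with RTX against 4.17 and 4.29 with 5FdUR, and MDM2, whose RTX changes differed in sign, by 0.55 and -0.18 with RTX against 1.63 and 1.03 with 5FdUR. For these 4 genes the 5FdUR values were the higher ones in both fractions. LAMA3 had 2.43 and 2.89 with RTX against 4.23 and 4.87 with 5FdUR, and H3C1 -1.68 and -3.08 with RTX against -3.01 and -4.25 with 5FdUR. HSPA5 had 1.42 and 1.51 with RTX against 1.35 and 1.60 with 5FdUR, and MYC -1.43 and -1.39 with RTX against -1.37 and -1.51 with 5FdUR. TYMS changed by 1.01 and 1.13 with RTX against 0.65 and 0.59 with 5FdUR. No test of these differences between the drugs was possible with 1 library per group.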

How the data were processed

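RNA of 6 libraries was sequenced, of which the 4 of NT and RTX carried the comparison. Per the labels and the methods, rRNA was depleted, libraries kept strand information, and the authors removed residual rRNA reads, trimmed with fastp, aligned to GRCh38 with HISAT2, kept uniquely mapped reads on the core chromosomes and quantified GENCODE 34 entries with Cufflinks and Cuffnorm. Tool versions are not given in the sources used here. The deposited values, which the authors call FPKM, are signal with no division by length: at least 99.989% of the positive values in each library were whole multiples of the value of 1 fragment within 0.1 fragments. Fragments were recovered from that value. All 33 mitochondrial entries were at 0. Of 36 per-sample columns, 26 were not used here, among them the authors' means and SDs.

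Changes were computed with Python 3.11.15 (pandas 2.3.3, numpy 2.4.6 and scipy 1.17.1) on log2(value + 100), for entries with a mean of the 4 libraries above 1000, and a gene was counted at a change of 1 or more in both fractions. An exact binomial test on fragments, with a Benjamini-Hochberg adjusted p under 0.05, called 7263 entries in RIPctr and 8582 in TS-RIP, 5914 of them in both in the same direction. It compares libraries, not conditions, and was used as an alternative only. Intervals treat each fragment as independent, which PCR copies are not, so they may be too narrow even for counting error. Calls and intervals were run on simulated Poisson fragments with known changes, the same in both fractions. This checks the calculation only, as the simulation held no differences between cultures and no PCR copies. Gene names are those of the files, coordinates, transcript lengths and GC content are from GENCODE 44 on GRCh38, and promoters from RefSeq (GRCh38.p14), matched by symbol or Ensembl identifier. In the 45 lists, 65 of 1721 listed symbols had no entry under their own name, and a symbol with several entries was taken at its highest mean.

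The members, the lists and the thresholds were chosen with earlier results of these data known. Named genes were, among entries of 1 gene counted in both fractions and ranked by the smaller change, the first 10 protein-coding genes in each direction (mean above 5000), the first 5 lncRNAs in each direction (mean above 2000) and up to 4 members of each list in each direction, together with TYMS, CDKN1A, MDM2, MYC, TK1, MALAT1, NEAT1 and the 3 genes of highest mean that moved opposite ways. Some genes that this rule takes are not reported here. Other genes were named after their values were seen. Alternatives were pseudocounts of 10 and 1000, a mean above 5000 or no filter, 2 other scalings, the deposited 50% subsample of each library, a change of 1.5-fold, the binomial test and entries of 1 gene only.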

Additional observations from a re-analysis of the deposited data

Results flagged for a closer look

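The RTX minus NT changes of 3 named genes had opposite signs in RIPctr and TS-RIP, with the difference between fractions taken as TS-RIP minus RIPctr on the log2 scale. It was -4.92 for AL162581.1, the entry of 7SK RNA, -3.94 for SCARNA7 and -2.58 for AL356488.2. With 1 library per treatment and fraction these differences were not tested.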

How the results depend on the processing

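With no filter on the mean, 1221 genes were higher in both fractions in place of 662, and at a change of 1.5-fold or more 1770 were higher and 1697 lower. The other 33 counts of higher and lower genes, in both fractions or in 1, stayed within 1.5 times of those reported. Pseudocounts of 10 and 1000 gave 691 and 547 higher and 465 and 310 lower genes, and requiring the binomial test as well gave 645 and 420. Scaling libraries to the same total moved the median of all genes by 0.10 in RIPctr and -0.10 in TS-RIP, and gave 668 higher and 339 lower genes, of which 594 and 317 were among those reported. It changed the sign of 8 list medians, each of which had been within 0.102 of 0. Of 119 named genes counted, 112 stayed counted at the same total (not ACTA2, FASN, GDF15, MNT, MYCL, NKD1 and SLC25A5) and 110 in the 50% subsample (not BMF, CDC45, HSD17B7, MNT, NKD1, RAD51C, SLC25A21, SLC29A1 and TYMS). Of 180 counts of list members, 172 stayed within 1.5 times. No paired analysis was possible because the labels carry no replicate numbers and each group is 1 library, which also means that no library could be left out. A mean of 1000 rests on 8.04 to 11.8 fragments, which gives wide counting intervals near that level.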
